A study of Mus musculus with 20 samples.

Results

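Rpe65, Rgr, Ttr, Tyrp1 and Rbp4 are known for their work in or around the retinal pigment epithelium, the pigmented cell layer that lies against the photoreceptors. These 5 genes were chosen by name and looked up in the deposited expression tables of mouse retina. All 5 were among the 1497 genes of the table for postnatal day 21 (P21). Only Ttr and Tyrp1 were among the 566 genes of the table for postnatal day 2 (P2), so Rpe65, Rgr and Rbp4 at P2 were not analysed here.

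The tables hold RNA-seq of retina from C57BL/6J mice in 5 groups at each age, with 2 samples per group and 20 samples in all. The groups were wild type, CrxRip/+ (1 copy of the Rip allele of Crx), CrxRip/Rip (both copies), Nrl-/- (no functional Nrl) and Crx-/- (no functional Crx). Crx and Nrl encode transcription factors of photoreceptors, and Nrl sets the rod fate. Each sample was made from 2 retinas that were removed and flash frozen, and the labels do not say whether pigment epithelium was taken off, or whether both retinas of a sample came from 1 animal. The p-values below therefore measure only the spread between these samples.

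Vision depends on the visual cycle, in which light-isomerised retinoid leaves the photoreceptor, is turned back into its 11-cis form in the pigment epithelium and returns. RPE65 is the isomerohydrolase of that cycle, and RGR is an opsin of pigment epithelium and Müller glia that takes part in retinoid isomerisation. Vitamin A reaches the eye bound to RBP4, the plasma retinol carrier, which travels in a complex with transthyretin, the product of Ttr. The pigment epithelium is an ocular source of Ttr RNA. TYRP1 is a melanosomal enzyme of melanin synthesis, made in pigment epithelium and in the melanocytes of choroid and iris.

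CRX and its relative OTX2, which pigment epithelium also makes, bind sites with the core TAATCC, so the bases before each start site were searched for it on both strands. The M-box TCATGTG, bound by the melanocyte factor MITF, was searched in the same way, and the motifs do not overlap. Of the 5 genes, 4 had an entry in the RefSeq promoter table (GRCm38.p6), and Ttr had none. The 250 bases before the start site are shown for the genes with a match to either motif, with the matched letters in capitals, read 5′ to 3′ on the strand of the gene. They stand at chr3:159598931-159599180 on the plus strand for Rpe65, chr14:37049015-37049264 on the minus strand for Rgr and chr4:80833963-80834212 on the plus strand for Tyrp1.
Rpe65: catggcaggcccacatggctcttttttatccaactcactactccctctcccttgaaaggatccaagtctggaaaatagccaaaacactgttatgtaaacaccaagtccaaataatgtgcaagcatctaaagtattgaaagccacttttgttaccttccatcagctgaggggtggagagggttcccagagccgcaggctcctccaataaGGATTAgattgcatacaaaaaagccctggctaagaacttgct
Rgr: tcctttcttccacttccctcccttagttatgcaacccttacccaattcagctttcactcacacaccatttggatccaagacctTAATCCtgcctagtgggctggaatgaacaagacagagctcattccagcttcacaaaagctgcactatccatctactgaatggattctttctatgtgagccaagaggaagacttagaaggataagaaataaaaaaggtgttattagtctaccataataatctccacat
Tyrp1: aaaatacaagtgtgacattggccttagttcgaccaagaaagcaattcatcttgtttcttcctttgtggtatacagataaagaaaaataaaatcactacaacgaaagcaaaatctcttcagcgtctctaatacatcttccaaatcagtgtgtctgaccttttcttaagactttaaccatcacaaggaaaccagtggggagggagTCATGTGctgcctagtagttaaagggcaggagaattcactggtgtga
The core stood in the window of Rpe65 as GGATTA, its reverse complement, and in that of Rgr as TAATCC. The window of Tyrp1 held the M-box, and a GGATTA lay 5 bases after its start site. Neither motif was found around either of the 2 start sites listed for Rbp4. Over all 32851 windows of 300 bases in the table (250 before and 50 after a start site), 7.1% held the CRX and OTX core and 3.8% held the M-box, and a match describes letters only.

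Levels are given in FPKM, fragments per kilobase of transcript scaled to the size of the library, which the authors deposited to 1 decimal. Differences between genotypes are differences of group means of log2(FPKM + 1), tested with limma over every gene of the table. They are called at an adjusted p (Benjamini-Hochberg) under 0.05. On this scale the change of a gene near 0 FPKM is understated, so ratios of mean FPKM are given as well. An exact permutation test of 2 samples against 2 cannot go below p = 0.33, so the calls rest on the spread pooled over the 5 genotypes. The depth behind the FPKM values is unknown. In bulk retina, fewer cells of a type and less RNA per cell cannot be told apart, and the same holds for gains.

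The library labels were checked on Nrl, which was 427.6 to 466.1 FPKM in wild-type samples at P21 and 0.2 FPKM in both Nrl-/- samples. It was also 0.9 and 0.4 FPKM in CrxRip/+ and 0.1 and 0.2 FPKM in CrxRip/Rip, and 87.2 and 82.0 FPKM in Crx-/-. At P21 Nrl therefore does not tell Nrl-/- from the CrxRip genotypes. At P2 Nrl was 0.1 FPKM in both Nrl-/- samples and 36.5 to 81.6 FPKM in the other samples. Crx was 167.9 and 171.4 FPKM in Crx-/- samples against 350.7 and 343.9 FPKM in wild type, and a value over the whole transcript does not check the Crx alleles. The 1497 genes of the P21 table summed to 53395.9 and 55335.3 FPKM in wild type and to between 21569.4 and 40702.0 FPKM in mutants. FPKM is a share of each library, and this sum moved with the genotype. Every gene in either table passed an adjusted p under 0.05 together with a change of 2-fold or more in some comparison of the authors' deposited table, so the tables hold genes selected for change.

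At P21 all 5 genes were higher in each of the 8 mutant samples than in both wild-type samples, whichever gene was mutated. This held for 29.9% of all genes in the table. Of the 20 comparisons of a member with wild type, 19 were called, all higher. Among all genes, 39.5% were called higher in CrxRip/+, 36.3% in CrxRip/Rip, 40.4% in Nrl-/- and 39.8% in Crx-/-. The 4 comparisons share the same wild-type samples, so they do not repeat each other independently.

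**Figure D1:**
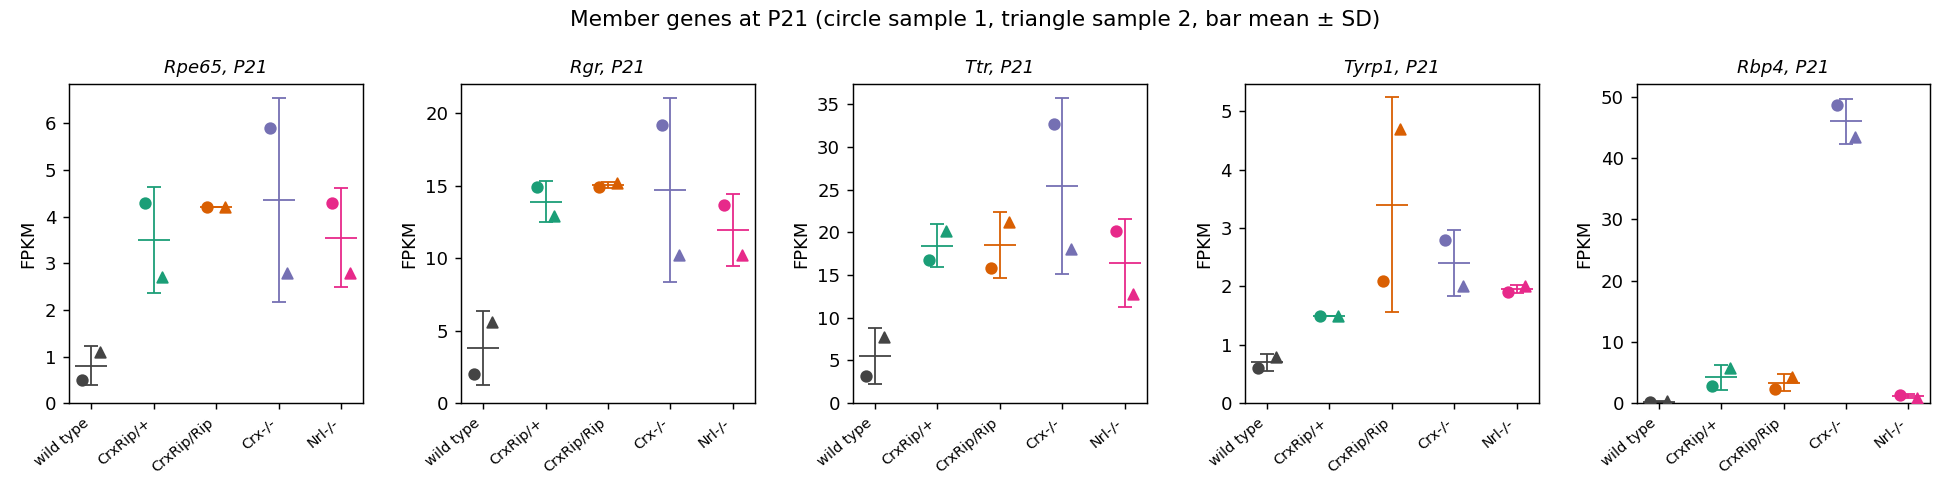
FPKM (linear axis from 0, scaled for each gene) of the 5 genes in the 10 P21 samples, by genotype, with sample 1 as a circle, sample 2 as a triangle and the mean ± SD as bars. The wild-type samples are the lowest for each gene, and Rbp4 in Crx-/- stands at 43.4 and 48.6 FPKM.

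Rpe65, which carries out the isomerisation step of the cycle, was 0.5 and 1.1 FPKM in wild type. Among mutants, CrxRip/+ samples had 4.3 and 2.7 FPKM, both CrxRip/Rip samples 4.2 FPKM, Crx-/- samples 5.9 and 2.8 FPKM, and Nrl-/- samples 4.3 and 2.8 FPKM. The mutant samples spread 2.19-fold among themselves and none reached down to wild type. Mean Rpe65 was 0.8 ± 0.42 FPKM (SD, n = 2) in wild type and 4.38-fold that in CrxRip/+, 4.44-fold in Nrl-/-, 5.25-fold in CrxRip/Rip and 5.44-fold in Crx-/-. The log2 differences were 1.32, 1.34, 1.55 and 1.53 in the same order, each with SE 0.31, and limma's adjusted p lay between 0.00181 and 0.00511. With a pseudocount of 0.1 the CrxRip/+, CrxRip/Rip and Nrl-/- values were 2.05, 2.34 and 2.07.

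Rgr, the opsin-like isomerase, was 2.0 and 5.6 FPKM in wild type. The pairs of mutant samples were 14.9 and 12.9 FPKM (CrxRip/+), 14.9 and 15.2 FPKM (CrxRip/Rip), 19.2 and 10.2 FPKM (Crx-/-) and 13.7 and 10.2 FPKM (Nrl-/-). All mutant samples thus lay within 1.88-fold of each other, above both wild-type samples. The means were 3.14-fold (Nrl-/-) to 3.96-fold (CrxRip/Rip) of wild type, with log2 differences of 1.53 to 1.85 (SE 0.38) and limma adjusted p of 0.00191 to 0.00632. Without wild-type sample 1, the lower of that pair, the Nrl-/- difference was 0.96 and kept its call (limma adjusted p 0.0418).

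Ttr, the carrier of thyroxine and of RBP4, was 3.2 and 7.8 FPKM in wild type. Crx-/- samples had 32.7 and 18.1 FPKM, Nrl-/- samples 20.1 and 12.8 FPKM, CrxRip/+ samples 16.7 and 20.2 FPKM and CrxRip/Rip samples 15.8 and 21.2 FPKM. The lowest mutant sample, in Nrl-/-, was above the higher wild-type sample, and the highest was Crx-/- sample 1. The means were 2.99-fold (Nrl-/-) to 4.62-fold (Crx-/-) of wild type. Log2 differences were 2.06 in Crx-/-, 1.67 in CrxRip/+ and CrxRip/Rip, and 1.49 in Nrl-/- (SE 0.39), with limma adjusted p of 0.0013 to 0.00888. The Nrl-/- call was lost without wild-type sample 1 (0.95, limma adjusted p 0.07) and without Nrl-/- sample 1 (1.18, limma adjusted p 0.0684).

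Rpe65, Rgr and Ttr did not pass limma's test between any mutants: of their 18 comparisons 0 were called, and 0 had an unadjusted p under 0.05. In the 6 comparisons between mutants, 47.0% to 66.8% of all genes were called. The largest of the 18 differences was 0.57 on the log2 scale, for Ttr in Crx-/- against Nrl-/-. The 95% confidence intervals of the 18 differences reached from -1.19 to 1.48, so the intervals allow gaps between mutants of more than 2-fold on this scale. In the authors' deposited table, Ttr had an adjusted p under 0.05 in Crx-/- against CrxRip/+ (0.0477), CrxRip/Rip (0.0456) and Nrl-/- (0.00111), and Rpe65 and Rgr had none between mutants.

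Tyrp1, the melanin enzyme, was 0.6 and 0.8 FPKM in wild type. Both CrxRip/+ samples had 1.5 FPKM, Nrl-/- samples 1.9 and 2.0 FPKM, Crx-/- samples 2.8 and 2.0 FPKM, and CrxRip/Rip samples 2.1 and 4.7 FPKM. Sample 2 of CrxRip/Rip stood above all others. The means were 2.14-fold of wild type in CrxRip/+, 2.79-fold in Nrl-/-, 3.43-fold in Crx-/- and 4.86-fold in CrxRip/Rip. Tyrp1 was called higher than wild type in CrxRip/Rip (log2 difference 1.31, SE 0.25, limma adjusted p 0.00143), Crx-/- (0.99, limma adjusted p 0.00625) and Nrl-/- (0.80, limma adjusted p 0.0205). In CrxRip/+ the difference was 0.56 (95% confidence interval -0.02 to 1.14, limma adjusted p 0.0743), which did not pass. That comparison was called with a pseudocount of 0.1 (limma adjusted p 0.026) and in a fit of these genotypes alone (limma adjusted p 0.00915). The smaller pseudocount moved the CrxRip/Rip, Crx-/- and Nrl-/- differences to 2.03, 1.64 and 1.37.
The CrxRip/Rip difference was 0.87 without its sample 2. The Crx-/- call was lost without Crx-/- sample 1 (limma adjusted p 0.0516), and the Nrl-/- call was lost when any 1 of the 4 wild-type and Nrl-/- samples was left out (limma adjusted p 0.0531 to 0.104). Between mutants, Tyrp1 was called in 1 comparison, higher in CrxRip/Rip than in CrxRip/+ (0.75, limma adjusted p 0.0405), where 47.0% of all genes were called. This value was 0.31 without CrxRip/Rip sample 2 (limma adjusted p 0.152) and 1.19 without sample 1. The call was also lost on leaving out any 1 sample of the other genotypes (limma adjusted p 0.0576 to 0.109) and in a fit of these genotypes alone (limma adjusted p 0.189).

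Rbp4, the retinol carrier, did not follow the others. It was 0.2 and 0.3 FPKM in wild type, 0.9 and 1.4 FPKM in Nrl-/-, 2.4 and 4.3 FPKM in CrxRip/Rip, 2.8 and 5.7 FPKM in CrxRip/+, and 43.4 and 48.6 FPKM in Crx-/-. In this order of means the CrxRip/Rip and CrxRip/+ samples overlapped, and the other neighbours did not. The Crx-/- mean of 46.0 ± 3.68 FPKM (SD, n = 2) was 184-fold the wild-type mean of 0.25 ± 0.07 FPKM, against 17.0-fold in CrxRip/+, 13.4-fold in CrxRip/Rip and 4.6-fold in Nrl-/-. The wild-type values are within a few rounding steps of 0, so these ratios are coarse.
On the log2 scale the differences from wild type were 5.23 in Crx-/- (SE 0.29, limma adjusted p 1.14e-06), 2.01 in CrxRip/+ (0.000316), 1.77 in CrxRip/Rip (0.000543) and 0.77 in Nrl-/- (0.0391). With a pseudocount of 0.1 the CrxRip/+, CrxRip/Rip and Nrl-/- values became 3.57, 3.26 and 1.82. The Nrl-/- call was lost when any 1 wild-type, Crx-/- or Nrl-/- sample was left out (limma adjusted p 0.0586 to 0.188).

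Rbp4 was also where mutants differed from each other. Crx-/- exceeded CrxRip/+ by 3.22 (95% confidence interval 2.55 to 3.88), CrxRip/Rip by 3.47 (2.80 to 4.13) and Nrl-/- by 4.46 (3.79 to 5.12) on the log2 scale, each called by limma. Over the whole table, 52.6%, 53.4% and 65.1% of genes were called in these 3 comparisons. Rbp4 was lower in Nrl-/- than in CrxRip/+ (log2 difference -1.24) and CrxRip/Rip (-0.99), in comparisons where 48.8% and 66.8% of genes were called. The first of these calls was lost without Nrl-/- sample 2 (limma adjusted p 0.0593). The second was lost without Nrl-/- sample 2 (limma adjusted p 0.0941) or CrxRip/Rip sample 2 (limma adjusted p 0.0901). Together with Tyrp1, 6 of the 30 member comparisons between mutants were called.

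In the authors' deposited table, all 20 member comparisons with wild type at P21 had an adjusted p under 0.05, and for 19 of them the authors' log2 fold change was also 1 or more. Between mutants at P21, 11 of 30 had an adjusted p under 0.05 in the authors' deposited table (5 for Rbp4, 3 for Tyrp1 and 3 for Ttr), against 6 called by limma here. At P2 the authors' deposited table had 4 of 8 with wild type and 4 of 12 between mutants, against 2 and 3 called by limma here. Every gene in either table had passed a threshold on these same values in some comparison, so these counts are not separate support for the limma calls. The shares of all genes passing by the authors' values were not computed here.

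Whether samples of a genotype moved together was then described, since epithelium left on some retinas would raise its genes in the same samples. Rpe65, Rgr and Ttr were all higher in sample 2 of wild type, in sample 1 of Crx-/- and in sample 1 of Nrl-/-. In wild type, sample 1 minus sample 2 on the log2(FPKM + 1) scale was -0.49 for Rpe65, -1.14 for Rgr and -1.07 for Ttr, while 90% of all genes differed by at most 0.24 in either direction. In Crx-/- the same differences were 0.86, 0.85 and 0.82, against 0.25 for 90% of genes. In Nrl-/- they were 0.48, 0.39 and 0.61, against 0.30.
The other genotypes did not show the joint shift. Within CrxRip/+, Rpe65 and Rgr were higher in sample 1 (0.52 and 0.19) and Ttr in sample 2 (-0.26), with 90% of genes within 0.53. Within CrxRip/Rip the differences were 0 for Rpe65, -0.03 for Rgr and -0.40 for Ttr, with 90% of genes within 0.57.

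Rdh5, the 11-cis retinol dehydrogenase of the pigment epithelium, and Ptgds, a secreted prostaglandin synthase that also binds retinoids, shifted with them. Rdh5 was 1.4 and 2.6 FPKM in wild type, 8.0 and 4.7 in Crx-/- and 5.5 and 4.4 in Nrl-/-. Ptgds was 9.1 and 15.7 FPKM in wild type, 47.7 and 25.4 in Crx-/- and 30.9 and 26.3 in Nrl-/-. The same sample was the higher one as for Rpe65 in these 3 genotypes. In Nrl-/- the log2 gaps of Rdh5 (0.27) and Ptgds (0.225) were within the 0.30 that held 90% of genes. In CrxRip/Rip both were higher in sample 2 (-0.38 and -0.50, within the 0.57 of 90% of genes), while Rpe65 was equal.

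Tyrp1 and Rbp4 shared this shift in part. Tyrp1 differed between samples by -0.88 in CrxRip/Rip and 0.34 in Crx-/-, and by -0.17, 0 and -0.05 in wild type, CrxRip/+ and Nrl-/-. Its partner in melanin synthesis Dct was higher in the same samples as Rpe65 in wild type (-0.43), Crx-/- (0.38) and Nrl-/- (0.14), with wider gaps in CrxRip/Rip (-1.04) and CrxRip/+ (0.94). Pmel, the melanosome fibril protein, had the same signs (-0.58, 0.28 and 0.06, with -0.73 and 1.06). Rbp4 also had the higher value in the same sample as Rpe65 in wild type (-0.12), Crx-/- (0.16) and Nrl-/- (0.34), of which only the last was beyond the range of 90% of genes. Its gaps in CrxRip/+ (-0.82) and CrxRip/Rip (-0.64) were wider, and in CrxRip/+ of the opposite sign to Rpe65. Of the other listed pigment epithelium genes, Stra6 and Crym were higher in the same samples as Rpe65 in wild type, Crx-/- and Nrl-/-. Sulf1 (0.25), Cst3 (0.20) and Otx2 (0.02) were instead higher in wild-type sample 1, and Igfbp5 was equal there. Krt18 (-0.14), Cst3 (-0.09) and Igfbp5 (-0.10) were higher in Nrl-/- sample 2, and Igfbp5 (-0.09) in Crx-/- sample 2.

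**Figure D2:**
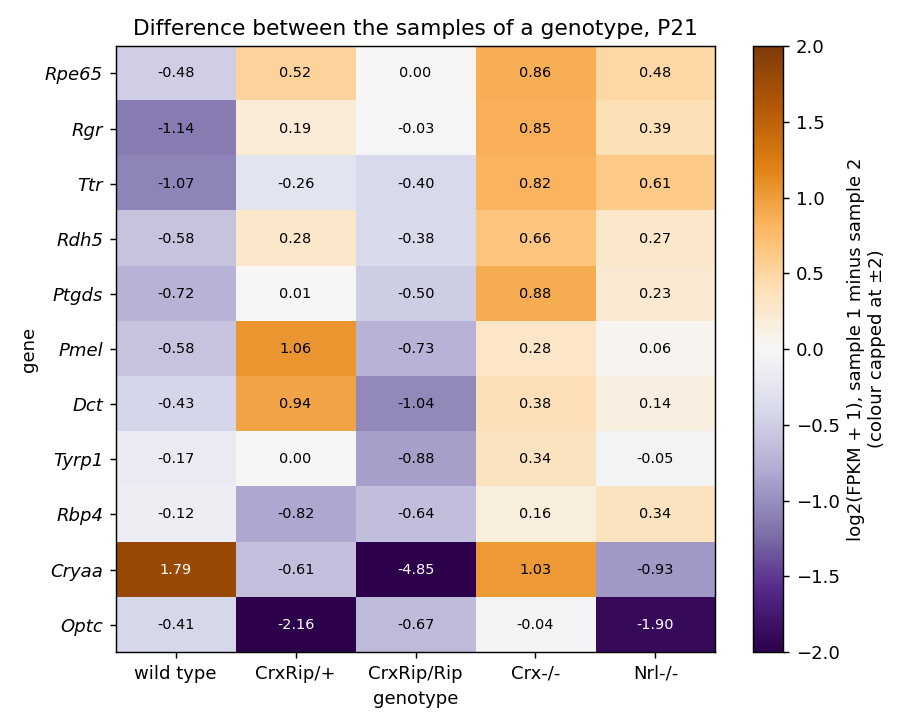
Sample 1 minus sample 2 of each genotype at P21 on the log2(FPKM + 1) scale (colour and printed value, colour capped at 2 in either direction) for the 5 genes, for Rdh5, Ptgds, Pmel and Dct picked from the listed pigment epithelium genes, and for the lens gene Cryaa and the ciliary body gene Optc. Other listed pigment epithelium genes, some with other signs, are not drawn. Rpe65, Rgr, Ttr, Rdh5, Ptgds, Pmel, Dct and Rbp4 share their sign in wild type, Crx-/- and Nrl-/-, Tyrp1 does so in the first 2, and Cryaa and Optc follow other patterns.

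Ratios within a sample cancel its total level. Rgr over Rpe65 stayed between 3.19 and 5.09 in the 10 samples (median 3.63), a 1.6-fold range. Rpe65 itself ranged 11.8-fold over the 10 samples, and 2.19-fold over the 8 mutant samples alone. Ttr over Rpe65 ranged from 3.76 to 7.48, or 1.99-fold. Rdh5 over Rpe65 ranged 2.55-fold and Tyrp1 over Rpe65 3.43-fold. Rbp4 over Rpe65 went from 0.27 to 15.5, or 57.4-fold, with its top value in Crx-/- sample 2. Rpe65 in wild type is known only to the nearest 0.1 FPKM, which limits the ratios there. Such ranges were not computed for pairs of genes over the whole table.

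Over the 10 samples, Pearson's r of log2(FPKM + 1) was 0.97 between Rpe65 and Rgr, 0.93 between Rpe65 and Ttr and 0.96 between Rgr and Ttr. The wild-type pair stands apart from the mutants and carries part of these values. Over the 8 mutant samples alone, r was 0.91, 0.64 and 0.73, and Spearman's rank correlation was 0.75, 0.32 and 0.58. By Pearson's r, Rpe65 with Tyrp1 gave 0.40 and Rpe65 with Rbp4 gave 0.18 over those 8, while Ttr with Rbp4 gave 0.67. Samples of a genotype share that genotype, and each r is a description of these libraries.

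**Figure D3:**
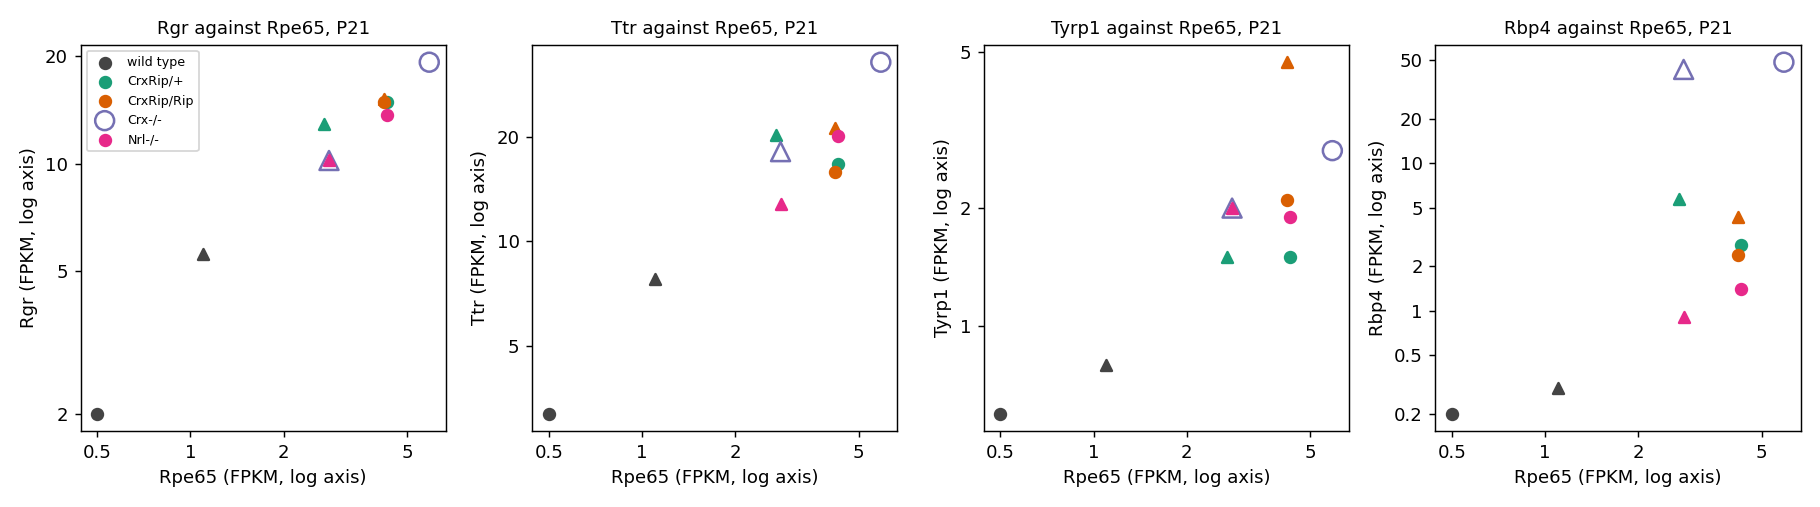
FPKM of Rgr, Ttr, Tyrp1 and Rbp4 against Rpe65 in the 10 P21 samples, on log axes, with sample 1 as circles, sample 2 as triangles and Crx-/- as open symbols. Rgr and Ttr climb with Rpe65 over the 10 samples, Ttr less closely among the mutants alone. The Crx-/- samples leave the other mutants only in the panel of Rbp4.

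The genes whose pattern was most like each member, over the 10 samples and among genes that reached at least 5 FPKM, were named by Pearson's r. For Rpe65 they were Rdh5 (0.97), Rgr (0.97) and Ptgds (0.955). For Rgr they were Ptgds (0.97), Rpe65 (0.97) and Rdh5 (0.97), and for Ttr they were Ptgds (0.98), Rdh5 (0.97) and Rgr (0.96). The nearest genes of these 3 members were thus Rdh5, Ptgds, Rgr and Rpe65 alone. Tyrp1 was most like Rprm (0.94), Fancl (0.93) and Fzd6 (0.92), and none of these was on the pigment epithelium list. Rbp4 was most like Cd63 (0.99), Zfp488 (0.99) and Tmbim1 (0.98), each highest in both Crx-/- samples. Cd63, a tetraspanin of endosomes and melanosomes, was 40.6 and 33.8 FPKM in Crx-/- and 11.9 to 20.6 FPKM in the other 8 samples.

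Further pigment epithelium genes were read from a list of 42, of which 16 were in the P21 table. Of the 11 that are not members, 8 were called higher than wild type in Crx-/-, 7 in CrxRip/Rip, 6 in CrxRip/+ and 6 in Nrl-/-, and 2, 2, 2 and 1 were called lower. Of all genes, 39.8%, 36.3%, 39.5% and 40.4% were called higher in the same order, and 41.5%, 44.3%, 35.0% and 31.8% lower. The table holds only genes selected for change, so the counts cover no listed gene that failed that selection. The median log2 difference of the 11 genes was 1.29 in Crx-/-, 0.79 in CrxRip/Rip, 0.68 in CrxRip/+ and 0.54 in Nrl-/-, beside -0.04, -0.14, 0.13 and 0.17 over all genes. Rdh5 was higher by 1.01 to 1.29 and Ptgds by 1.18 to 1.47 across the 4 genotypes, and all 8 values were called. Dct, the dopachrome tautomerase of melanin synthesis, was called higher in CrxRip/Rip (1.20), Crx-/- (1.85) and Nrl-/- (1.11) and was 0.65 in CrxRip/+, which did not pass. Pmel was called in Crx-/- alone (1.39).
Krt18, an epithelial keratin, and Cst3, cystatin C, went the other way. Krt18 was called lower in the 3 Crx genotypes, with log2 differences from -2.91 to -2.11, and its difference of 0.12 in Nrl-/- was not called. Cst3 was called lower in all 4 genotypes, with differences from -1.16 to -0.51. Of 9 genes set as defining for pigment epithelium, Rpe65, Tyrp1, Dct and Pmel were in the table, and none of these was at 0 in any sample.

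Of 48 retinoid genes listed, 16 were in the P21 table. Of the 12 non-members, 3 were called higher than wild type in Crx-/-, 4 in CrxRip/Rip, 4 in CrxRip/+ and 4 in Nrl-/-, and 7, 8, 5 and 5 were called lower. Of all genes, 41.5%, 44.3%, 35.0% and 31.8% were called lower in the same order. Their median log2 difference in the same order was -0.69, -0.74, -0.25 and -0.25, beside the medians of all genes just given. Stra6, the cell-surface receptor for RBP4, was 1.0 and 1.5 FPKM in wild type and 2.1 to 3.4 FPKM in mutants, with called log2 differences of 0.54 to 0.79.
The retinol dehydrogenases of photoreceptors went down instead. Rdh12 was 180.7 and 169.6 FPKM in wild type and 10.7 to 53.6 FPKM in mutants, and Rdh8 was 68.3 and 61.3 FPKM in wild type and 0.8 to 41.6 FPKM in mutants. Abca4, the retinoid flippase of outer segments, was 168.6 and 166.1 FPKM in wild type and 32.1 to 69.7 FPKM in mutants. Each of these was called lower in all 4 genotypes. Rxrg, a retinoid receptor of cones, was called higher in all 4 genotypes (log2 differences of 1.22 to 3.22).

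**Figure D4:**
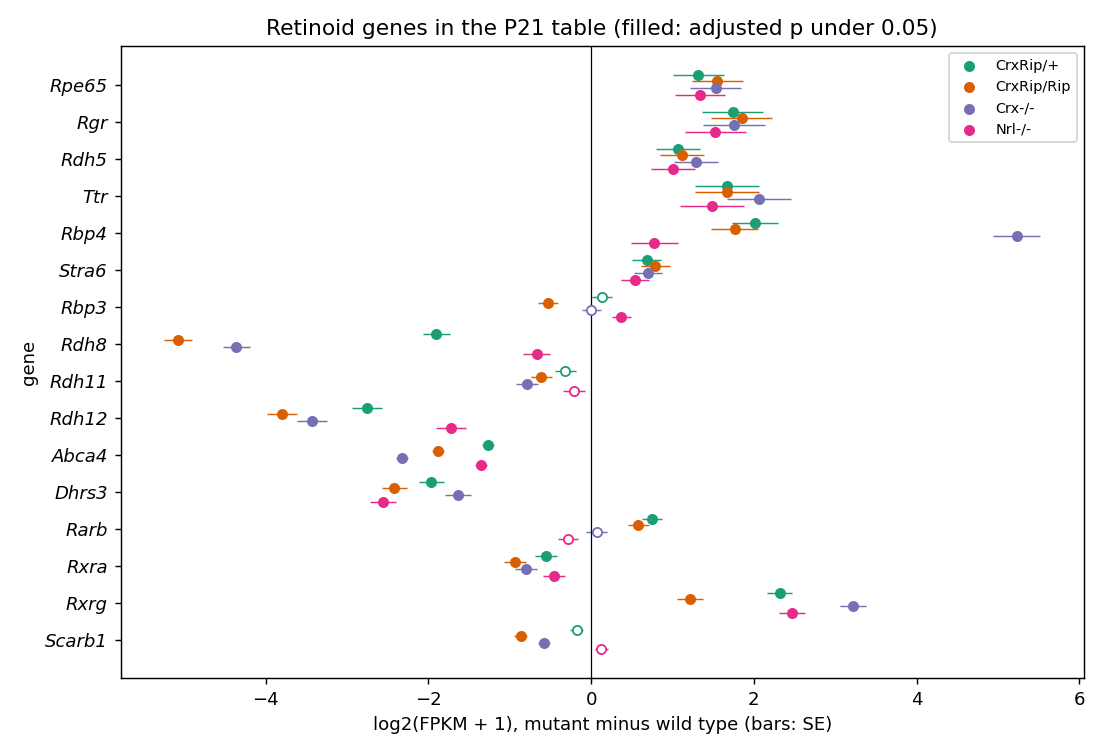
Log2(FPKM + 1) difference from wild type at P21 for the 16 listed retinoid genes in the table, by mutant genotype, with SE bars, filled where the adjusted p was under 0.05. Rpe65, Rgr, Rdh5, Ttr, Rbp4 and Stra6 lie to the right of 0 in all 4 genotypes, and Rdh8, Rdh12, Abca4 and Dhrs3 lie to the left.

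Other cell types were followed by summed marker levels in the same samples. The 4 lens crystallins in the table (of 15 lens genes) summed to 41.6 and 9.7 FPKM in wild type and 0.3 and 58.3 FPKM in CrxRip/Rip, and lay between 0.2 and 9.2 FPKM elsewhere. In wild type the lens sum was high in the sample where Rpe65, Rgr and Ttr were low. The 5 globin genes (of 7 blood genes) summed to 8.9 and 44.5 FPKM in CrxRip/Rip and 20.2 to 92.0 FPKM in the other genotypes. In CrxRip/Rip, sample 2 was thus high in lens, blood, Tyrp1 and Dct together. Leaving out both wild-type sample 1 and CrxRip/Rip sample 2, an alternative added after the data were seen, left 14 of the 20 comparisons with wild type and 5 of the 30 between mutants called. The calls lost against wild type were Rpe65 in CrxRip/+ (1.08) and Nrl-/- (1.10), Rgr in Nrl-/- (0.96), Ttr in CrxRip/Rip (0.93) and Nrl-/- (0.95), and Rbp4 in Nrl-/- (0.72), and Tyrp1 in CrxRip/+ gained one (0.47). Between mutants, the calls of Tyrp1 in CrxRip/Rip against CrxRip/+ (0.31) and of Rbp4 in Nrl-/- against CrxRip/Rip (-0.67) were lost, and Tyrp1 in Crx-/- against CrxRip/+ gained one (0.43, limma adjusted p 0.0361).
The 4 ciliary body and iris genes (of 15) summed to 11.0 and 13.6 FPKM in wild type, 13.9 and 25.9 FPKM in Nrl-/-, 9.1 and 22.3 FPKM in CrxRip/+, 6.7 and 9.1 FPKM in CrxRip/Rip and 10.2 and 11.1 FPKM in Crx-/-. Of these genes, Wls, which carries Wnt proteins to the cell surface, was called higher in all 4 genotypes (0.49 to 0.76). The 2 choroid and connective tissue genes (of 10) summed to 7.5 and 5.9 FPKM in wild type, 11.7 and 12.7 FPKM in Nrl-/-, 8.5 and 8.3 FPKM in CrxRip/+, 8.1 and 7.5 FPKM in Crx-/- and 4.5 and 6.4 FPKM in CrxRip/Rip. Both sums were above wild type in each Nrl-/- sample, where Mgp, a matrix protein of connective tissue, was called higher (0.66). Of 12 Müller glia genes, which bear on Rgr, Sox9 and Gfap were in the table. Gfap, the intermediate filament of reactive glia, was 4.5 and 3.7 FPKM in wild type and 6.5 to 26.8 FPKM in mutants. Sox9 was called higher in the 3 Crx genotypes (0.45 to 1.27). In Nrl-/- it was 2.6 and 2.0 FPKM against 2.1 and 2.4 FPKM in wild type (log2 difference 0.02, not called). The 4 endothelial genes (of 13) summed to 25.7 and 26.5 FPKM in wild type and 31.8 to 57.9 FPKM in mutants. Most of this sum was Kdr, the receptor for VEGF, at 15.7 and 16.7 FPKM in wild type and 17.8 to 51.0 FPKM in mutants. Kdr was called higher in the 3 Crx genotypes (1.12 to 1.28) and Cdh5 in Nrl-/- (0.47). Pecam1 was called lower in CrxRip/Rip (-0.50) and Cldn5 in CrxRip/Rip (-0.65) and Crx-/- (-0.52). The part of these cell types, of carried-over epithelium and of the smaller summed FPKM of mutants in the member differences was not tested. Rescaling each library by the median of ratios took the median log2 difference of all genes from 0.13 to 0.01 in CrxRip/+ and from 0.17 to 0.00 in Nrl-/-. In CrxRip/Rip this median went from -0.14 to -0.07, and in Crx-/- from -0.04 to -0.07. With this scaling, 19 of the 20 member comparisons with wild type were called.

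Over the 10 samples of an age, Ttr ranged 3.5-fold at P2 against 10.2-fold at P21, and Tyrp1 2.8-fold against 7.8-fold. Among the 8 mutant samples alone, Ttr ranged more at P2 (3.53-fold against 2.55-fold) and Tyrp1 less (2.24-fold against 3.13-fold). Tyrp1 at P2 was 2.0 and 1.7 FPKM in wild type and 2.1 and 2.3 FPKM in Nrl-/-. Both Crx-/- samples had 2.8 FPKM, CrxRip/+ samples 2.4 and 3.3 FPKM, and CrxRip/Rip samples 3.0 and 4.7 FPKM. Its 8 mutant samples all exceeded both wild-type samples, as in 3.53% of the 566 genes, and those of Ttr did not. The CrxRip/Rip difference was called (log2 difference 0.75, limma adjusted p 0.0118), where 5.83% of all genes were called higher. It was lost without wild-type sample 2 (limma adjusted p 0.0763) and in a fit of these genotypes alone (limma adjusted p 0.103), and it was 0.49 without CrxRip/Rip sample 2 (limma adjusted p 0.0469).
The other 3 genotypes gave 0.43 in CrxRip/+, 0.42 in Crx-/- and 0.17 in Nrl-/-, none called by limma (adjusted p 0.166, 0.1 and 0.386). The CrxRip/+ and Crx-/- values were called without either CrxRip/Rip sample (limma adjusted p 0.0453 and 0.0455 for CrxRip/+, 0.03 and 0.0304 for Crx-/-), and the Crx-/- value in a fit of Crx-/- and wild type alone (limma adjusted p 0.0302). In the authors' deposited table the adjusted p was 0.0295 in CrxRip/+ and 0.007 in Crx-/-. After rescaling by the median of ratios the Nrl-/- difference was 0.92 (limma adjusted p 0.00343). Of all genes, 3.71%, 9.19% and 18.9% were called higher in these comparisons. Rescaling turned the split of called genes from 52 higher and 117 lower to 86 and 57 in Crx-/-, and from 107 and 366 to 188 and 96 in Nrl-/-.

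Ttr at P2 was 2.6 and 3.1 FPKM in wild type and 2.2 and 3.1 FPKM in Nrl-/-. Crx-/- samples had 4.9 and 6.7 FPKM, CrxRip/+ samples 2.5 and 4.6 FPKM, and CrxRip/Rip samples 2.2 and 1.9 FPKM. The Crx-/- samples were the highest and the CrxRip/Rip samples were at the bottom, with sample 1 of CrxRip/Rip equal to sample 1 of Nrl-/-. Ttr was called higher in Crx-/- than in wild type (0.81, limma adjusted p 0.0338), a call lost when any 1 of those 4 samples was left out (limma adjusted p 0.0568 to 0.191). It was called higher in Crx-/- than in CrxRip/Rip (1.15, limma adjusted p 0.00578), where 41.3% of genes were called, and lost without Crx-/- sample 2 (limma adjusted p 0.0512).
Against Nrl-/- the Crx-/- difference was 0.90 (limma adjusted p 0.0072), where 78.8% of genes were called. Tyrp1 was lower in Nrl-/- than in CrxRip/Rip (-0.58, limma adjusted p 0.0124), where 89.2% of genes were called. Both of these depend on the scale of the Nrl-/- libraries: at P2 the median of all genes in Nrl-/- against wild type was -0.77 as deposited and -0.04 once each library was rescaled by median-of-ratios factors. On that scale, the Ttr difference was 0.22 (limma adjusted p 0.485) and the Tyrp1 difference was 0.12 (limma adjusted p 0.625).
As deposited, the Ttr call was also lost without Crx-/- sample 2 (limma adjusted p 0.0575) or Nrl-/- sample 1 (limma adjusted p 0.0584), and the Tyrp1 call without CrxRip/Rip sample 2 (-0.32, limma adjusted p 0.0702) or Nrl-/- sample 1 (limma adjusted p 0.0642), or in a fit of its genotypes alone (limma adjusted p 0.0687).

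**Figure D5:**
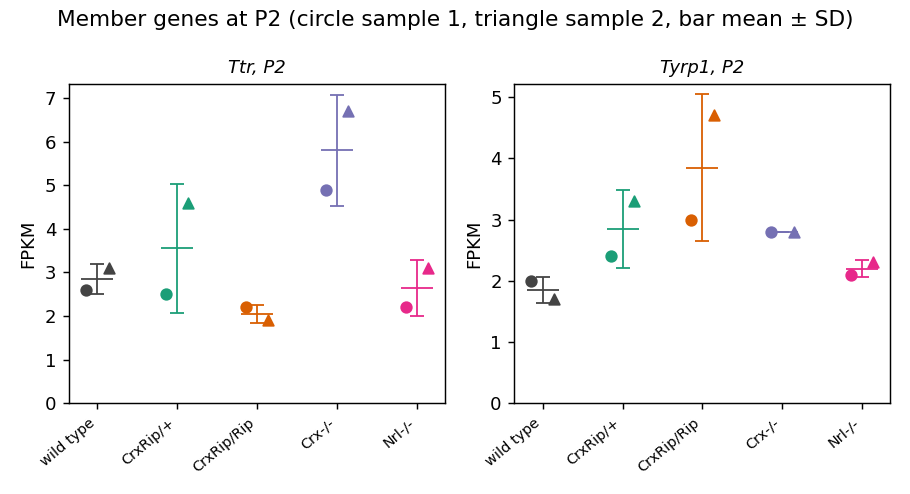
FPKM (linear axis from 0) of Ttr and Tyrp1 in the 10 P2 samples, by genotype, with sample 1 as a circle, sample 2 as a triangle and the mean ± SD as bars. Ttr is highest in Crx-/- at 4.9 and 6.7 FPKM, and Tyrp1 reaches 4.7 FPKM in CrxRip/Rip sample 2.

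Ttr and Tyrp1 did not follow each other at P2, with an r of -0.01 over 10 samples and -0.11 over the 8 mutants. By r, Ttr was most like Paqr3 (0.83), Obox6 (0.81) and Sema7a (0.79). Obox6, a homeobox gene, was 7.8 and 8.4 FPKM in Crx-/- and at most 0.3 FPKM in the other 8 samples. Tyrp1 was most like Mfap4 (0.85), Tle2 (0.84) and Acbd7 (0.84), all 3 of which had their highest sample in CrxRip/Rip.
Among other pigment genes, Trpm1, a cation channel of melanocytes and bipolar cells, was 0.4 and 3.9 FPKM in CrxRip/Rip and 0.7 to 1.2 FPKM elsewhere. Krt18 and Slc24a4, the other listed pigment and melanin genes at P2, were called lower in CrxRip/Rip (log2 differences -0.90 and -0.69). There 21.2% of all genes were called lower. Slc24a4 was called higher in Nrl-/- (0.695), where 18.9% of all genes were. Optc, the opticin of the ciliary body, was 1.1 and 6.9 FPKM in CrxRip/Rip and 1.2 to 3.1 FPKM elsewhere. Trpm1 and Optc were high in the same CrxRip/Rip sample as Tyrp1. So were Hbb-bs of blood (0.9 and 4.9 FPKM in CrxRip/Rip) and Rgs5 of the endothelium and pericyte list (1.2 and 3.4 FPKM). The part of these genes' tissues in the Tyrp1 call was not tested.
Of the retinoid genes, Ttr, Rdh12, Rxrg and Abca4 were in the P2 table. The 3 others were called lower than wild type in CrxRip/+, CrxRip/Rip and Nrl-/-, and 2 of them were called lower in Crx-/-. Of all genes, 12.7%, 21.2%, 64.7% and 20.7% were called lower in these comparisons, and in Nrl-/- the 366 genes called lower became 96 after rescaling.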

How the data were processed

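RNA-seq tables of 20 mouse retina samples (10 per age) were used. FPKM per sample were deposited by the authors to 1 decimal, beside their adjusted p-values and log2 fold changes. DESeq is named in the submitters' processing notes, with no version. The aligner, counter, genome build and annotation were not given in the sources used here. Columns were matched to samples by title. The members and gene lists were chosen with earlier results of these data known.

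Values were tested as log2(FPKM + 1) with limma 3.58.1 (R 4.3.3), 1 term per genotype over the 10 samples of an age, with a mean trend and empirical Bayes moderation (5 residual degrees of freedom). Adjustment was by Benjamini-Hochberg over 566 genes (P2) or 1497 genes (P21). The code was tested on simulated data. Same-numbered samples did not deviate together (r of -0.3 to 0.33), so no pairing was used. Named genes were the 5 members, genes of the lists (1 listed gene is not reported here), and the 3 genes most correlated with each member (highest sample at least 5 FPKM), with Crx and Nrl as a label check. Alternatives were a pseudocount of 0.1, a mean of at least 1 FPKM, rescaling by the median of ratios, only 2 genotypes, a replicate block, no trend, and each sample left out.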

Additional observations from a re-analysis of the deposited data

Results flagged for a closer look

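Ttr in CrxRip/Rip lay below both wild-type samples at P2 and above both at P21, with log2 differences of -0.34 (not called) and 1.67. Tyrp1 in Nrl-/- lay below both CrxRip/+ samples at P2 (-0.26) and above both at P21 (0.24), and neither difference was called. The change between ages was not tested in either case, and the tables of the ages were deposited separately.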

How the results depend on the processing

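At P21 the number of called member comparisons with wild type was 19 as reported and 16 to 20 when single samples were left out. Between mutants it was 6 as reported and 3 to 9 when single samples were left out. At P2 the comparisons with wild type gave 2 calls as reported, 0 to 4 without single samples and 4 with median-of-ratios scaling. Those between mutants gave 3 calls, or 1 to 5 without single samples. Fits with the replicate block gave 19 and 5 calls at P21 and 4 between mutants at P2. The block ended 1 member call, Tyrp1 in CrxRip/Rip against CrxRip/+ at P21 (limma adjusted p 0.0515), although same-numbered samples did not deviate together. After rescaling, Ttr in Nrl-/- against wild type at P2 changed from -0.09 (not called) to 0.72 (called), Tyrp1 in the same comparison from 0.17 (not called) to 0.92 (called), and Tyrp1 in Nrl-/- against CrxRip/Rip at P2 from -0.58 to 0.12. Rescaling removes the lower median of Nrl-/- libraries by construction, and the table cannot tell which scale is right. Over 37 member comparisons recomputed under the alternatives, 554 of 618 values kept their direction and side of the threshold. These were all comparisons with wild type and only the called ones between mutants. Some of those left out gained a call, such as Tyrp1 in Nrl-/- against CrxRip/Rip at P21 after rescaling (-0.76). Leaving out a sample of a genotype outside the comparison cannot change its difference, so many of these values could not change direction. With 2 samples per group and FPKM rounded to 1 decimal, levels under 1 FPKM, such as Rbp4 and Tyrp1 in wild type at P21, are known to about 1 digit.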
